A study of Homo sapiens with 8 samples.

Results

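The nuclear-encoded oxidative phosphorylation genes code for the subunits of the mitochondrial respiratory chain and the ATP synthase that are made from chromosomal DNA. Members were protein-coding rows of the deposited table, taken by symbol. Complex I symbols begin with NDUFA, NDUFB, NDUFC, NDUFS or NDUFV followed by a digit. Complex II symbols are SDHA, SDHB, SDHC and SDHD. Those of complex III begin with UQCR or are CYC1. Symbols that begin with COX4 to COX8 belong to complex IV, and those with ATP5F, ATP5M or ATP5P to complex V. NDUFA4 and NDUFA4L2 were counted in complex IV. Assembly factors such as the NDUFAF and SDHAF genes were not taken. The rule took 89 of the 38637 genes listed: 37 in complex I, 4 in complex II, 10 in complex III, 19 in complex IV and 19 in complex V. It used symbols only and no measured value. Of the 89, 83 passed the filter on low counts in each comparison, and the 6 that did not are 5 tissue-type isoforms and a retrocopy, named further on.

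RNA-seq profiles of SW1990, an established human pancreatic cancer cell line, came from 8 libraries in 4 groups of 2. The labels and the study's text name SW1990 cells for the RNA-seq. The legend of its RNA-seq heatmaps names SW1990-luc, its luciferase-labelled cells. The Vector libraries (numbered 2 and 3) are labelled vector and the EBF2-OE libraries (2 and 3) overexpress EBF2, a transcription factor best known from brown and beige fat cells. The Vehicle libraries (1 and 2) are labelled as vehicle-treated, and the GSK-LSD1 libraries (1 and 2) received GSK-LSD1, an inhibitor of the histone demethylase KDM1A (also called LSD1), at 2000 µM by the sample titles. The study's other assays name lower doses of the compound, so the unit in the titles is uncertain. The study used the inhibitor to raise monomethylation of histone H3 on lysine 4 and the overexpression to raise EBF2, and the comparisons ask which transcripts move with each. How EBF2 was introduced, the time of treatment, and whether libraries of a group came from separate cultures or transfections, are not given in the labels, so p-values measure the spread between these libraries, which may be technical.

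In oxidative phosphorylation, complexes I and II feed electrons from NADH and succinate into the chain, complex III passes them from ubiquinol to cytochrome c, and complex IV hands them to oxygen. Complexes I, III and IV pump protons out of the matrix, and complex V, the ATP synthase, lets them flow back through its membrane part to drive ATP synthesis in its F1 head. Most complexes combine a catalytic core inherited from bacteria with small supernumerary subunits, and part of the core is encoded by mitochondrial DNA. The mitochondrially encoded subunits are not analysed here. Nuclear members are known targets of the activators NRF1 and GABP (an ETS factor) and of the coactivator PPARGC1A, and several complex IV subunits have alternative isoforms in muscle, lung or testis.

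Libraries held between 20453362 and 27054876 counts on genes, and the members took between 0.986% and 1.14% of them. EBF2 had 28 counts in each Vector library and 5818 and 90100 in EBF2-OE 2 and 3, so the overexpression label held and its extent differed between the libraries. Of the 7 ductal epithelial markers checked, KRT7, KRT8, KRT18 and MUC1 were at 123 TPM or more in every library, whereas KRT19, EPCAM and CDH1 did not exceed 1.57 TPM in any, so the epithelial identity given by the labels rests on part of the markers and the identity of the line was not tested. COL1A1, a fibroblast collagen, lay between 30.5 and 45.2 TPM, while the acinar enzymes PRSS1 and CELA3A had 0 counts. Of 4 brown fat genes, CIDEA and ADIPOQ had 0 counts, UCP1 at most 5 and DIO2 between 96 and 409. In bulk RNA, fewer cells of a type and less RNA per cell cannot be told apart.

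To show the promoter sequences that members share, 4 short motifs were searched on both strands of the RefSeq promoters (GRCh38.p14, 250 bases before to 50 after the start), which matched 71 of the 89 members by symbol or gene ID. The NRF1 motif (10 bases with 1 free position, seen in capitals in the NRF1 windows) occurred in 17 of 71 (23.9%), against 6.28% of all 27305 promoters, and the ETS motif CCGGAAG in 20 of 71 (28.2%), against 10.7%. The YY1 motif AAGATGGCG occurred in 8 (11.3%) against 1.85%, and the EBF motif (10 bases, its own reverse complement) in 2 (2.82%) against 1.2%. Members' promoters had a median GC content of 61% against 58.3% of all promoters, and no match of 1 motif overlapped that of another. The windows below, read 5′ to 3′ on the gene's strand with the match in capitals, come from 5 members that rose under GSK-LSD1 and from SDHA, which did not pass that test.
NDUFA3 (NRF1, chr19:54102772-54102801, plus strand): gtgctccaggGCGCACGCGCagccctggga
ATP5ME (NRF1, chr4:674431-674460, minus strand): cagcctttgtGCGCGTGCGCctcacgtgac
SDHA (NRF1, chr5:218242-218271, plus strand): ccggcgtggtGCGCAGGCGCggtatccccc
ATP5MK (ETS, chr10:103396617-103396646, minus strand): gtgcaattcttCCGGAAGtgtgggcgggct
UQCRQ (ETS, chr5:132866577-132866606, plus strand): aatggtatctcCCGGAAGttacctcacgac
ATP5PF (YY1, chr21:25735092-25735121, minus strand): aggcgaagaaAAGATGGCGgaggctgtgcc
ATP5MK holds the ETS motif on both strands in overlapping copies, and SDHA holds 4 NRF1 matches upstream of its start. A match describes the letters only and is no evidence that a factor binds there.

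By level, the members spanned the whole range from abundant to undetected. On the TPM scale, which divides counts by gene length and rescales each library to the same total, the highest mean over the 8 libraries was that of NDUFS6 in complex I (1610 TPM), followed by ATP5F1B, the catalytic beta subunit of the F1 head (1430 TPM), and UQCRH, the hinge protein of complex III (1040 TPM). COX6A1 led complex IV (844 TPM) and SDHB, the iron-sulfur subunit, led complex II (264 TPM). NDUFA5 (12.7 TPM) was the lowest of complex I and the membrane anchor SDHC (17.5 TPM) the lowest of complex II. These ranks depend on the listed gene length, 7288 bases for NDUFA5 and 13469 for SDHC. By counts, SDHC (1868 to 2305) lay above SDHD (832 to 1087), and NDUFA5 (681 to 941) above NDUFA7 (268 to 499). NDUFS6 overlaps MRPL36 on the opposite strand, and since the strand setting of the counting is not stated, reads of overlapping genes cannot be told apart.

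Of 8 alternative isoforms or paralogues in complex IV, 5 were almost silent next to their common partners. COX4I1 averaged 772 TPM and its lung-type isoform COX4I2 had at most 1 count in any library. The heart and muscle forms COX6A2 and COX7A1 did not exceed 3 and 8 counts, and COX7B2 and COX8C, both known from testis, had 0 counts in all 8 libraries. ATP5MGL, a retrocopy of the ATP synthase subunit ATP5MG, reached at most 3 counts. These 6 genes were not tested. Other relatives had reads: NDUFA4L2, the hypoxia-inducible relative of NDUFA4, averaged 62.8 TPM and COX7A2L, the relative of COX7A2 known from supercomplexes, 56.7 TPM. NDUFA4L2 had 451 to 935 counts and overlaps SHMT2 on the opposite strand, which had 6942 to 10572. Part of its reads may therefore belong to SHMT2, which was not tested. COX6B2, the testis-type partner of COX6B1, reached 11.7 TPM in 1 library of the EBF2-OE group.

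**Figure D1:**
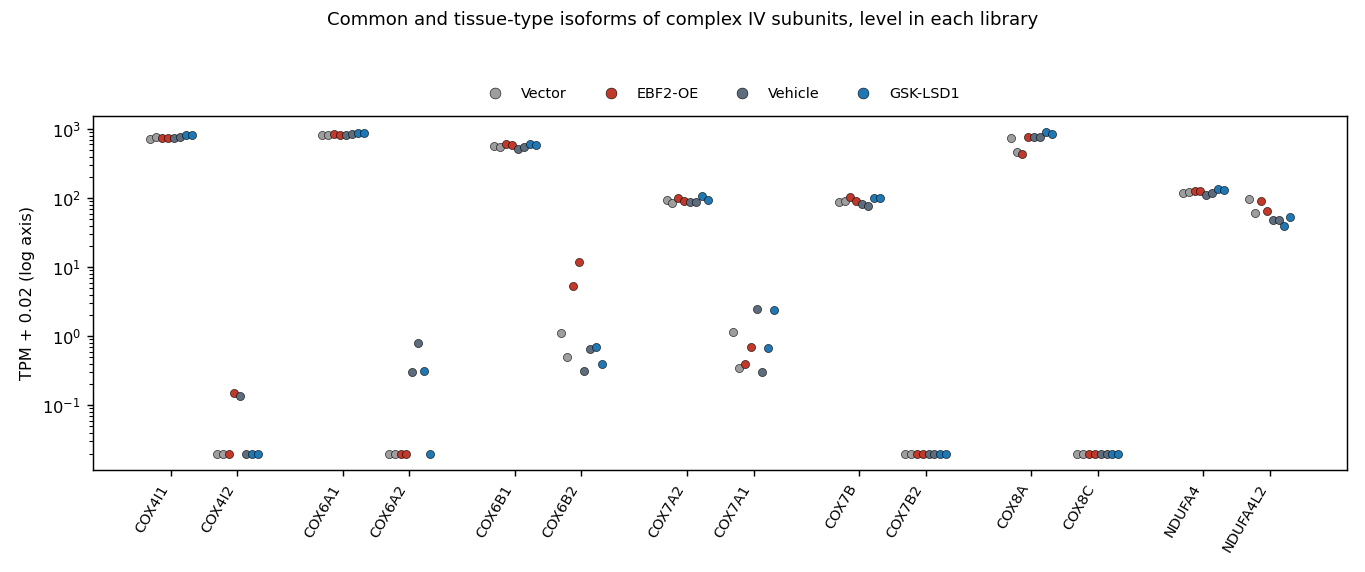
Level of 7 common complex IV subunits and their alternative isoforms in each of the 8 libraries (TPM plus 0.02 on a log axis; points from left to right within a gene are Vector, EBF2-OE, Vehicle and GSK-LSD1 libraries). COX6B2 lies at 5.39 and 11.7 TPM in the EBF2-OE libraries and at 1.10 TPM or below in the other 6, while COX7B2 and COX8C are at 0 throughout.

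Under GSK-LSD1, 45 of the 83 tested members rose and 1 fell at an adjusted p below 0.05 (edgeR quasi-likelihood test, Benjamini-Hochberg over 16059 genes). Without the readthrough rows, which share reads with other members, these were 44 and 1 of 81. The background was 9.86% of all genes tested higher and 8.87% lower, and 15.4% higher among the 6616 genes whose mean count was at least 736, the 10th percentile of the members. The changes were small: 0 members passed a fold of 1.5 as well, by edgeR, by DESeq2 or at an unadjusted p, against 2.53% of all genes higher and 2.04% lower. The median log2 fold change was 0.21 over the members and -0.01 over all genes tested. Both GSK-LSD1 libraries lay above both Vehicle libraries in 61 of 83 members, against 30.5% of all genes, and below in 4, against 29.7%.

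Summed over all 89 members, the level was 10081 and 9967 CPM (counts scaled to a common library size with TMM factors over the 8 libraries) in Vehicle 1 and 2 and 11381 and 10864 CPM in GSK-LSD1 1 and 2. The ratio of the group means was 1.11 for all members, 1.13 for complex I, 1.15 for complex IV and 1.117 for complex V. Complex III had a ratio of 1.085 and complex II one of 1.004. In complex II, SDHA carries most of the counts.

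**Figure D2:**
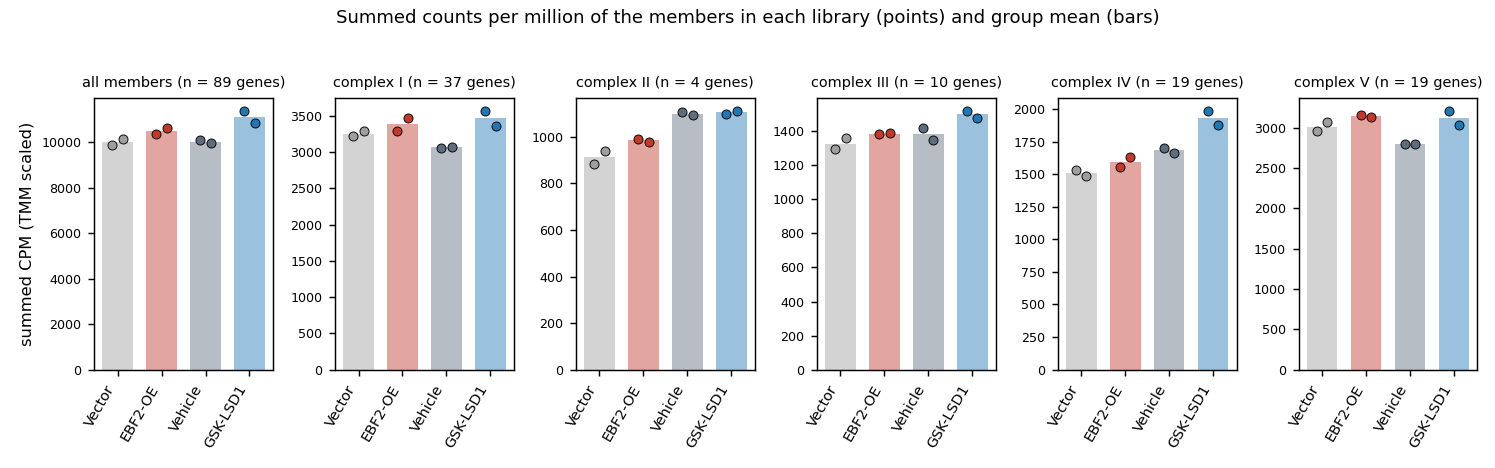
Summed CPM of the members by complex, with 1 point a library and bars at the mean of 2 libraries (linear axes from 0). The GSK-LSD1 points lie above both Vehicle points in every panel but complex II, where Vehicle 1 (1107 CPM) lies between GSK-LSD1 1 (1099 CPM) and GSK-LSD1 2 (1112 CPM).

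In complex V, 12 of 18 tested members rose, most of them in the membrane part through which protons flow. Of its 8 tested membrane subunits, 7 rose, beside 3 of 4 in the peripheral stalk and 2 of 5 in the F1 head. ATP5MK, a small subunit that helps synthase dimers form (chr10:103389050-103396505), had 55.0 and 53.7 CPM in Vehicle and 77.3 and 74.1 CPM after treatment. Its log2 fold change of 0.47 (SE 0.0596, adjusted p = 4.66e-04) was the largest among the members. ATP5ME, the e subunit of the membrane part (chr4:672436-674276), went from 35.6 and 33.7 to 47.5 and 46.0 CPM (0.43, SE 0.0675, adjusted p = 0.00174). In both genes the groups were separated by far more than the libraries within them.

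The c subunit, which forms the rotating ring of the synthase, is encoded by 3 nuclear genes whose mature proteins are identical. ATP5MC3 (chr2:175176258-175181710) stood at 101 CPM in both Vehicle libraries and at 137 and 133 CPM in GSK-LSD1 (0.41, SE 0.0498, adjusted p = 3.50e-04, the smallest among the members). ATP5MC1 rose as well, from 66 and 69.9 to 88.5 and 82.3 CPM (0.33, SE 0.0623, adjusted p = 0.00517). ATP5MC2, the most counted of the 3, had 238 and 243 CPM in Vehicle and 236 and 229 CPM in GSK-LSD1 (-0.05, 95% interval -0.15 to 0.04, adjusted p = 0.507). The rise was thus limited to 2 of the 3 genes by the test, and the difference between genes was not itself tested.

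In the F1 head, ATP5F1E and ATP5F1B rose by log2 0.23 and 0.15 (adjusted p = 0.0129 and 0.0328). The delta subunit ATP5F1D (chr19:1241751-1244825) fell by 0.30 (SE 0.0653, adjusted p = 0.00954), with 105 and 93.3 CPM in Vehicle and 81.6 and 79.7 CPM in GSK-LSD1. It was the single member that fell. Its transcript has a GC content of 69.5%, against a median of 47.5% among the tested members, and after removal of the trend with GC content in each library the change was -0.10 and no longer passed (adjusted p = 0.23).

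In complex I, 19 of 37 members rose. Of its 7 nuclear core subunits, which carry the flavin and iron-sulfur clusters, 1 rose, and of its 29 supernumerary subunits 17 did. NDUFS8, the core subunit that rose, had 103 and 97.8 CPM in Vehicle and 119 and 117 CPM in GSK-LSD1 (0.23, SE 0.0526, adjusted p = 0.013). NDUFV1, which binds NADH and the flavin, had 218 and 223 CPM in Vehicle and 214 and 211 CPM in GSK-LSD1 (-0.06, adjusted p = 0.459). NDUFS1, NDUFS3 and NDUFS7 had log2 fold changes between 0.01 and 0.03, none past the test. All 29 supernumerary subunits had fitted changes above 0. The shares in core and supernumerary subunits were counted and not compared by a test.

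Among the supernumerary subunits, NDUFA3 (chr19:54102338-54107568) rose from 16.4 and 17.6 to 21.9 and 23.0 CPM (0.40, SE 0.0919, adjusted p = 0.0134), and it overlaps TFPT on the opposite strand. NDUFC2 (chr11:78068297-78079862) rose from 108 CPM in both Vehicle libraries to 151 and 132 CPM (0.38, SE 0.0645, adjusted p = 0.00262). The readthrough row NDUFC2-KCTD14 spans NDUFC2 and gave 0.40, and is no separate observation because the rows share reads. NDUFS6, the zinc-binding subunit with the highest level in the complex, rose from 280 and 275 to 357 and 335 CPM (0.31, SE 0.0503, adjusted p = 0.00193). NDUFB2 and NDUFC1 reached 0.29 and 0.28 without passing (adjusted p = 0.0521 and 0.053).

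In complex II, SDHB rose from 89.3 and 90.6 to 106 and 107 CPM (0.24, SE 0.0518, adjusted p = 0.0103). SDHA, the flavoprotein with the highest count of the complex, had 898 and 881 CPM in Vehicle and 857 and 872 CPM in GSK-LSD1 (-0.04, 95% interval -0.12 to 0.03, adjusted p = 0.492). The membrane anchors SDHC and SDHD had 0.17 and 0.09 and did not pass.

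In complex III, 5 of 10 members rose. UQCR10, a small single-span subunit (chr22:29767369-29770413), led with 26.4 and 25.2 CPM in Vehicle and 34.0 and 34.7 CPM in GSK-LSD1 (0.41, SE 0.0741, adjusted p = 0.00379). UQCRQ followed with 0.31, and UQCRH and the core protein UQCRC2 rose by 0.17 and 0.18. The catalytic subunits did not pass: cytochrome c1 (CYC1) had 0.09 and the Rieske iron-sulfur protein UQCRFS1 -0.17. Both of them, and COX5A of complex IV, had Vehicle libraries that differed by more than the groups did, UQCRFS1 with 79.7 and 58.0 CPM against 62.3 and 60.2 CPM in GSK-LSD1. UQCRHL, an intronless copy of UQCRH, had between 42 and 71 counts, which may include reads of UQCRH.

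In complex IV, 8 of 14 tested members rose. COX6C rose from 92.3 and 93.5 to 124 and 118 CPM (0.38, SE 0.0532, adjusted p = 9.42e-04). COX7B rose from 77.3 and 71.7 to 97.5 and 93.7 CPM (0.36, SE 0.0595, adjusted p = 0.00243). COX7C rose from 180 and 188 to 240 and 226 CPM (0.34, SE 0.0533, adjusted p = 0.00175). These are small supernumerary subunits around the mitochondrially encoded core. COX4I1, NDUFA4, COX6B1, COX7A2 and COX8A rose by 0.15 to 0.24, whereas COX6A1 (0.10), COX5B (0.14) and COX5A (-0.17) did not pass.

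**Figure D3:**
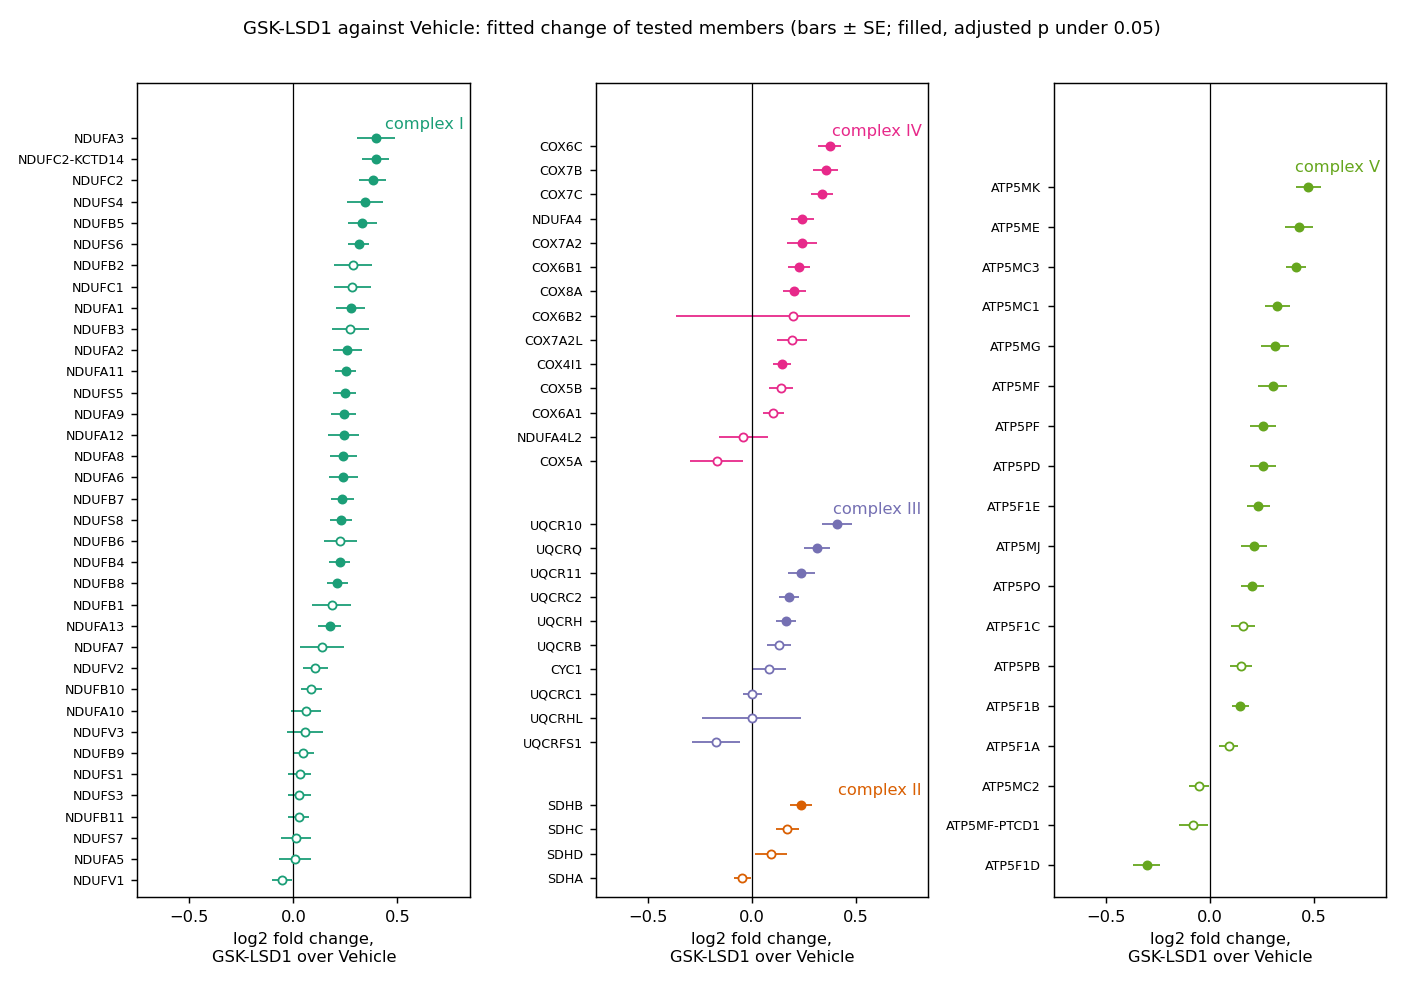
Fitted log2 fold change of GSK-LSD1 over Vehicle for 82 of the 83 tested members, ordered within complexes, with bars of 1 standard error on either side; filled points have an adjusted p under 0.05. Filled points lie right of 0 in every complex except for ATP5F1D at -0.30, and the open points at or left of 0 include SDHA, NDUFV1, UQCRFS1, COX5A and ATP5MC2.

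The count of members that rose depended on the libraries: without GSK-LSD1 1 it was 10, without GSK-LSD1 2 it was 30, and without either Vehicle library it was 43. ATP5MC3, ATP5ME, ATP5MK, COX6C, COX7B, COX7C, NDUFC2, NDUFC2-KCTD14, NDUFS6 and UQCR10 passed in all 4 of these fits, of which NDUFC2 and NDUFC2-KCTD14 share reads. In 1 fit over all 8 libraries, which takes its spread from the Vector and EBF2-OE libraries too, 0 of the members passed by edgeR (smallest adjusted p = 0.072), 37 were higher at an unadjusted p under 0.05, and the 45 all kept a change above 0. DESeq2 on the 4 libraries gave 34 members higher, all of them among the 45. Over all genes it gave 984 higher, against 1583 by edgeR. Whether the lower counts in these fits are particular to the members was not tested.

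Members have short transcripts, with a median of 804 nt against 3080 nt for all genes tested. Among the fifth of genes with the shortest transcripts (up to 1613 nt), the median log2 fold change was 0.03 over all genes and 0.23 over the 63 members there. Of 84 cytosolic ribosomal proteins, 1 was higher and 10 lower with a median of -0.04, against 9.86% and 8.87% of all genes, and they were not compared with the members by a test. Across the 83 members, the log2 fold change had a Spearman correlation of -0.30 with transcript length and of -0.27 with GC content, given as a description. With the trend with gene length removed, 40 members were higher.

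Of 38 members with a promoter that rose, 11 (28.9%) held the NRF1 motif and 15 (39.5%) the ETS motif. The other 30 tested members held them in 5 (16.7%) and 5 (16.7%). The share with the YY1 motif was 13.2% among the 38 and 10% among the 30. These shares were not tested, and the windows printed for SDHA and NDUFA3 show that the NRF1 letters stood both before a gene that rose and before one that did not pass.

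Of 15 tested regulators of respiratory genes, 1 rose and 1 fell under GSK-LSD1. The background was 9.86% and 8.87% of all genes, and with 15 genes these counts were near it. At an unadjusted p under 0.05 by edgeR, 9 of the 15 passed, against 5247 of all 16059 genes. PPARGC1A, the coactivator of mitochondrial biogenesis, rose from 72 and 101 to 151 and 160 counts (1.04, SE 0.164, adjusted p = 0.00173). POLRMT, the mitochondrial RNA polymerase, fell by 0.43 (SE 0.0555, adjusted p = 5.54e-04). NRF1 (-0.06), GABPA (0.23) and TFAM (0.11), the factor that packages mitochondrial DNA, did not pass. PPARGC1B (0.323, adjusted p = 0.0541), YY1 (-0.23, adjusted p = 0.0555) and MYC (-0.165, adjusted p = 0.0608) missed the threshold. KDM1A, the target of the compound, fell by 0.22 (adjusted p = 0.0403) at the transcript level. Whether PPARGC1A bears on the members was not tested.

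Genes that surround the chain are read here against the same background of 9.86% of all genes higher and 8.87% lower. Of 16 carriers and partners, 6 rose and 1 fell. CYCS, the cytochrome c that shuttles electrons from complex III to IV, rose by 0.56 (SE 0.0519, adjusted p = 7.12e-05), more than any member. ATP5IF1, the inhibitor of the synthase (0.28), ETFA, which brings in electrons from fat oxidation (0.30), and the outer-membrane pore VDAC3 (0.31) rose, and COQ8A, needed for ubiquinone synthesis, fell by 0.51. Among assembly factors, 3 of 16 for complex I and 5 of 27 for complex IV rose, led by NUBPL (0.44), which inserts iron-sulfur clusters into complex I, and COX14 (0.39), and 0 of 15 for complexes II, III and V passed by edgeR, of which 6 had an unadjusted p under 0.05. NDUFAF6 was the 1 assembly factor that fell (-0.34). Of 17 TCA cycle genes 4 rose, among them IDH3A (0.40) and MDH2 (0.22). Of 19 import genes 6 rose and 0 fell. Of 78 mitochondrial ribosomal proteins 10 rose and 4 fell. Among genes with a mean count of at least 736, 15.4% were higher. The shorter lists hold few genes, so their shares were not read as results. The median log2 fold change of these lists ran from 0.00 for complex II assembly to 0.16 for complex III assembly, beside 0.21 for the members, and the lists were not compared by a test.

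Under EBF2 overexpression, 0 of the 83 members passed the test in edgeR, and neither did any of the 15560 genes (0% in either direction). At an unadjusted p under 0.05, 1 member passed, against 1.34% of all genes, and DESeq2 gave 1 member at an adjusted p under 0.05. Fitted changes were above 0 in 75 of 83 members with a median log2 fold change of 0.07, against 0.00 over all genes. Both EBF2-OE libraries lay above both Vector libraries in 25 members, against 11.0% of all genes, and below in 2, against 11.4%. The summed level of the members was 9895 and 10145 CPM in Vector and 10379 and 10606 CPM in EBF2-OE, a ratio of 1.05. By complex the medians ran from 0.06 in complexes I and III to 0.13 in complex II.

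The exception was COX6B2 (chr19:55349704-55354719), which codes for the form of subunit VIb known from sperm. It had 18 and 9 counts in Vector and 87 and 210 with EBF2 overexpressed, beside 6 and 14 in Vehicle and 13 and 7 in GSK-LSD1. The log2 fold change was 3.48 (SE 0.571, unadjusted p = 8.36e-04) and did not pass edgeR's adjustment (adjusted p = 1), whereas DESeq2 passed it at an adjusted p = 1.21e-05. With 18 and 9 counts in Vector, the gene passed edgeR's low-count filter in this comparison only through the EBF2-OE libraries, where it was high. The setting that asks for the minimum count in every library leaves COX6B2 out, so it was not tested there. Both EBF2-OE libraries lay above the other 6, and the higher of the pair was the one with more EBF2. Without EBF2-OE 3 the change was 2.80 and without Vector 2 it was 4.16, and with the replicate number as a block the adjusted p was 0.0701.

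COX6B1, the common form, stood at 102 and 105 CPM in Vector and at 113 and 112 CPM in EBF2-OE (0.12, unadjusted p = 0.341). On the TPM scale COX6B2 remained far below it, at 11.7 against 599 in EBF2-OE 3. No listed gene overlaps COX6B2, and whether reads of COX6B1 were counted for it was not tested. The next gene, KMT5C, had -0.24 in the same comparison and did not pass. Among the other members whose groups did not overlap, those furthest from 0 were SDHD (0.23) and NDUFB5 (0.21) above and ATP5MF-PTCD1 (-0.11) and CYC1 (-0.08) below, none with an unadjusted p under 0.05. ATP5MF-PTCD1 is a readthrough row that spans ATP5MF. PPARGC1A had 112 and 178 counts in Vector and 60 and 165 in EBF2-OE (-0.30, adjusted p = 1).

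The effects of EBF2-OE and GSK-LSD1 were compared directly as a difference of log2 fold changes over all 8 libraries. By edgeR it passed in 0 of 83 members and in 0 of all 16558 genes tested. At an unadjusted p under 0.05 it passed in 8 members, against 1268 of the 16558 genes. DESeq2 passed it in 1 member, COX6B2. The median difference was -0.13, with 64 members lower for EBF2-OE than for GSK-LSD1. Since no gene at all passed by edgeR, this test shows no larger effect of GSK-LSD1 on the members and cannot decide the question.

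**Figure D4:**
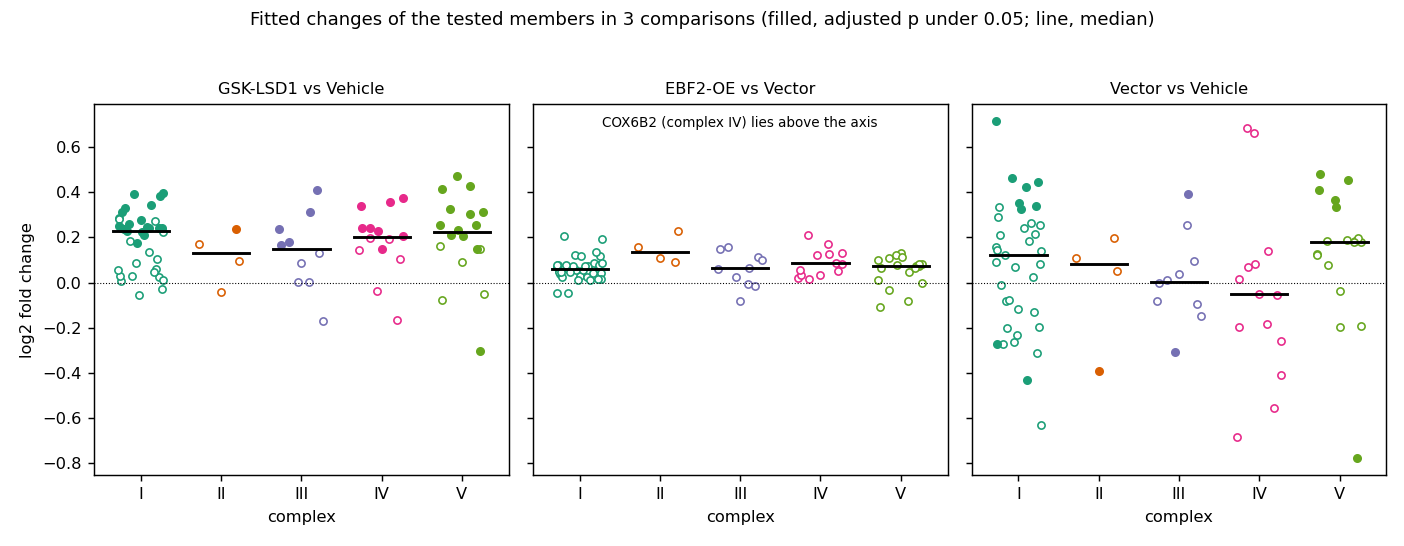
Fitted log2 fold change of the tested members by complex in 3 comparisons (1 point a member, filled where the adjusted p is under 0.05, black line at the median of the complex). COX6B2, at 3.48 in EBF2-OE against Vector, lies above the axis; the medians of the complexes lie between 0.13 and 0.23 under GSK-LSD1 and between 0.06 and 0.13 under EBF2-OE.

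The controls of the experiments differed in some members, and the vector, the vehicle and the experiment cannot be told apart in that comparison. In Vector against Vehicle 13 of 83 members were higher (13.6% of all genes were) and 5 lower (13.2%). Without the readthrough rows these were 11 and 5 of 81, so the share higher was near that of all genes. With a fold above 1.5 as well, 1 was higher (5.79%) and 1 lower (10.2%). Both Vector libraries lay above both Vehicle libraries in 39 members, against 35.7% of all genes, and below in 25, against 35.0%. NDUFB2, a supernumerary subunit of complex I, was higher by 0.72 (SE 0.0875, adjusted p = 0.00933), with 49.9 and 51.7 CPM in Vector against 30.7 and 31.0 CPM in Vehicle. ATP5F1D was lower by 0.78 in size (-0.78, SE 0.194, adjusted p = 0.0373). SDHA was lower (-0.39), as were UQCRC1 (-0.31), NDUFS3 (-0.27) and NDUFA7 (-0.43). The higher members included ATP5MC3 (0.48), ATP5MF (0.46), NDUFC2 (0.44), NDUFA6 (0.42), UQCRQ (0.39) and ATP5F1E (0.33). Without Vehicle 1 or without Vehicle 2, 0 members passed by edgeR, with 9 and 13 at an unadjusted p under 0.05, and with the length trend removed 24 were higher and 2 lower.

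Comparisons share no libraries between GSK-LSD1 against Vehicle and EBF2-OE against Vector, but Vector against Vehicle shares its controls with both. Side by side, ATP5MC3 had 0.41 under GSK-LSD1, 0.06 under EBF2-OE and 0.48 between the controls. For NDUFC2 these values were 0.38, 0.08 and 0.44, and for COX6C 0.38, 0.21 and -0.26. PPARGC1A was also higher in Vector than in Vehicle (0.98, adjusted p = 0.044). For NDUFC2 the Vector libraries, at 136 and 160 CPM, overlapped the GSK-LSD1 libraries at 151 and 132 CPM, whereas for COX6C both Vector libraries lay below both Vehicle libraries.

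Replicate libraries agreed unevenly. Among the 82 tested members other than COX6B2, the difference between the libraries exceeded 1.25-fold in 7 for Vector and 7 for EBF2-OE but in 2 for Vehicle and 2 for GSK-LSD1. Over the 10938 genes with at least 100 counts in every library the shares were 21.6%, 26.3%, 4.16% and 1.8%. ATP5F1D, COX5B, COX8A, NDUFB11 and NDUFS7 were lower in Vector 3 than in Vector 2 and higher in EBF2-OE 3 than in EBF2-OE 2, each by over 1.25-fold, which held for 2.83% of all genes. COX5B had 166 and 96.4 CPM in Vector 2 and 3 and 101 and 164 CPM in EBF2-OE 2 and 3. NDUFS7 had 52.8 and 35.2, then 30.5 and 62.1 CPM. The median GC content of the 5 transcripts was 58.9%, against 47.4% for the 82, and the part of GC content in the differences was not tested.

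**Figure D5:**
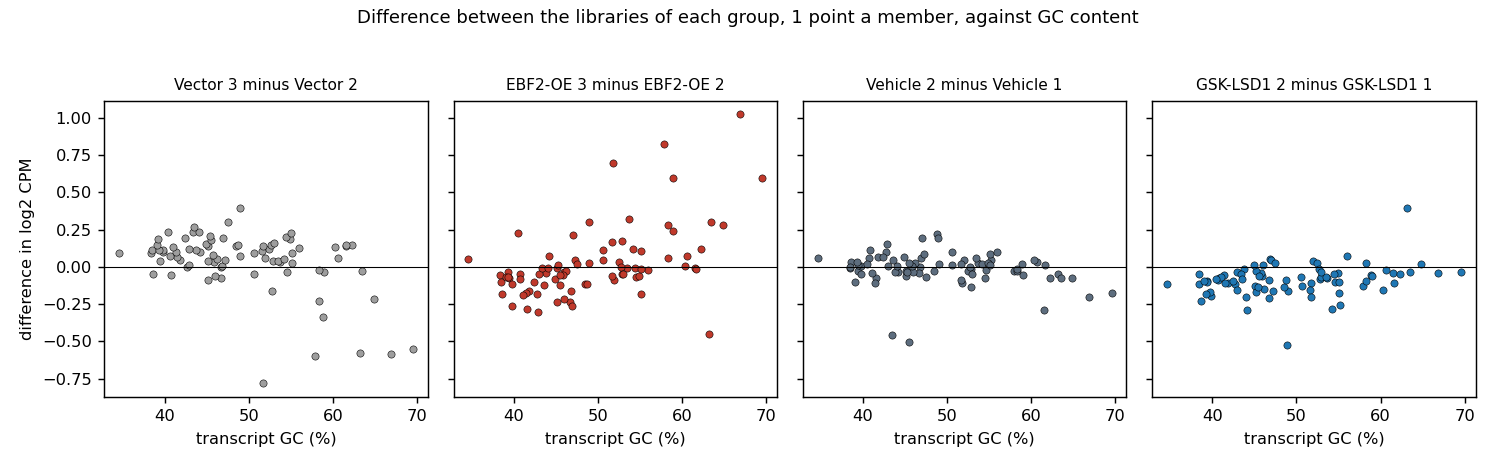
Difference in log2 CPM between the libraries of each group for 82 members (1 point a member) against the GC content of the transcript in percent. In the Vector and EBF2-OE panels the points spread wider toward high GC content. The lowest Vector point is -0.781 (COX5B, with a middle GC content of 51.74%), and the highest EBF2-OE point is 1.025 (NDUFS7, 66.89%). In the Vehicle and GSK-LSD1 panels the points lie mostly near 0.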

How the data were processed

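RNA-seq of 8 SW1990 libraries was analysed from 1 table. Per the study's methods, the authors enriched poly(A) RNA, used HISAT2 with its defaults against hg38, and deposited raw counts per gene from HTSeq; versions, annotation and strand setting are not given in the sources used here. The deposited TPM was checked to equal the count divided by the listed gene length, rescaled to the same total in each library, and served for levels only. The total count per library, from 20453362 to 27054876, limits the precision of low genes.

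Counts were tested with edgeR 4.0.16 (R 4.3.3), by the quasi-likelihood test with TMM factors and filterByExpr (minimum count 10), on the 4 libraries of each comparison, two-sided and adjusted by Benjamini-Hochberg over all genes tested. Standard errors come from the test statistic and intervals are 95% normal ones. The difference of effects used all 8 libraries. Alternatives were DESeq2 1.42.0, other size factors, other filters, removal of length or GC trends (loess, span 0.5), limma 3.58.1 on log2(CPM + 1), a replicate block and leaving out each library. The GC trend was added after seeing the data. Scripts were tested on simulated data. Transcript length and GC content come from GENCODE v44 canonical transcripts, and promoters from RefSeq.

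Samples were grouped by the treatment label. The replicate numbers do not mark a shared culture in the labels. Correlations of same-numbered deviations over 15783 genes were 0.34 for Vector with EBF2-OE and -0.05 for Vehicle with GSK-LSD1, with 2 pairs each. Over the members they were -0.62 and -0.15. The numbers were not taken to pair libraries.

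The members, roles and gene lists were chosen with earlier results of these data known. Named were up to 8 members past the test by adjusted p and the 3 with the largest change whose groups do not overlap, in each comparison and direction, the highest and lowest member by TPM in each complex, all isoforms, and up to 5 past the test in each list and direction. Other members were named for their role or after their values were seen. The values of 1 member are not reported here, though the counts and sums include it.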

Additional observations from a re-analysis of the deposited data

Results flagged for a closer look

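For COX6B2, the log2 fold change of EBF2-OE over Vector exceeded that of GSK-LSD1 over Vehicle by 3.27 in DESeq2 (adjusted p = 0.046), a difference between the effects of the treatments. In edgeR the difference was 3.27 with an adjusted p of 0.408. The gene had 6 to 18 counts in the 6 libraries without EBF2 overexpression, and no other member was past the threshold of this test in either tool.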

How the results depend on the processing

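Under GSK-LSD1, the number of members higher was 39 to 45 in the settings that keep the 4 libraries and edgeR or limma, 34 in DESeq2, 55 at an unadjusted p under 0.05 and 0 in 1 fit over all 8 libraries, where the number lower was also 0 (edgeR, 37 higher at an unadjusted p under 0.05). Leaving out each library in turn gave 10 (without GSK-LSD1 1) to 43 higher, 0 to 3 lower (3 without Vehicle 2) and a median log2 fold change of 0.166 to 0.261. With the GC trend removed 0 were lower, and NDUFV1 changed sign to 0.011. With the replicate block, the number higher was 39, the number lower 1 and the median 0.211, and under EBF2-OE 0 members passed by edgeR with a median of 0.068 (COX6B2 at an unadjusted p = 4.05e-05). Same-numbered libraries share only a number. Under EBF2-OE, 1 member was higher, also with a fold above 1.5, at an unadjusted p, in DESeq2 and with no low-count filter, and the difference between the effects passed for 1 member in DESeq2. Between Vector and Vehicle, counts moved more. At an unadjusted p 21 were higher and 14 lower, of which 2 and 3 had a fold above 1.5, and 2 and 3 did so in DESeq2. Upper quartile factors gave 9 lower, 2 of them past the fold, and a median of 0.019. Removing the length trend gave 24 higher, 2 lower, 3 higher past the fold and a median of 0.215. With no low-count filter 8 were lower, and 2 higher and 3 lower were past the fold. Removing the GC trend left 3 higher and 0 lower past the fold and a median of 0.031. Leaving out each library gave 0 to 28 higher (28 without Vector 2), 0 to 16 lower (16 without Vector 3), 0 to 2 higher past the fold and 0 to 4 lower past it, with 0 in each count without Vehicle 1 or without Vehicle 2. The cause was not tested for any of these. With 2 libraries a group the spread is poorly known, and low counts limit COX6B2 and UQCRHL.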
